A study of Mus musculus with 44 samples.

Results

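Primary mouse microglia that lack apolipoprotein E were compared with microglia of the APOE44 genotype, which the labels list beside APOE33, wild-type (WT) and knock-out (KO) as the apoe genotypes of the series. The 2 groups were taken by genotype and cell type from the labels: 4 Apoe knock-out and 6 APOE44 libraries, 10 of the 44 libraries in the series. APOE44 cells carry the human E4 form of the gene in place of the mouse one, so the comparison sets the absence of the protein against the presence of its human E4 form. In both groups the cells were purified, grown in media made for human microglia and left untreated, and both carry the same batch label (batch 1). The knock-out libraries came from 1 female and 3 male sources and the APOE44 libraries from 3 of each sex. The labels give no strain, knock-out allele or age, and do not say whether replicates came from separate animals, so p-values measure the spread between these libraries, which may be technical. Another 6 libraries of APOE33 microglia from batch 1 entered the same fit and are given beside the results where they show which of the groups stood apart.

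Apolipoprotein E is a secreted lipid carrier that takes up cholesterol and phospholipid exported by the transporters ABCA1 and ABCG1 and delivers them to cells through endocytic receptors. Microglia and astrocytes are its main sources in the brain, and its gene is a target of the liver X receptors, which sense oxidised sterols. When sterol in the endoplasmic reticulum is low, SCAP carries the transcription factor SREBP2 to the Golgi for cleavage, and the freed factor raises transcription of the cholesterol synthesis enzymes and of INSIG1, which closes the loop.

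The results turn on 4 sets of genes whose promoters are shown first: sterol synthesis (Hmgcs1, Lss), chemokines (Cxcl1, Cxcl2), immediate early genes (Dusp1) and the integrated stress response (Chac1). Each window is taken from RefSeq (GRCm38.p6), runs 5′ to 3′ on the gene's own strand and spans 250 bases before to 50 bases after the annotated start. The positions are chr13:119690101-119690400, plus strand for Hmgcs1, chr10:76531355-76531654, plus strand for Lss, chr5:90890995-90891294, plus strand for Cxcl1, chr5:90903649-90903948, plus strand for Cxcl2, chr17:26508423-26508722, minus strand for Dusp1 and chr2:119350992-119351291, plus strand for Chac1. Capitals mark matches on either strand to TCACNCCAC (a sterol regulatory element core) and CCAAT (the NF-Y box) in Hmgcs1, to CCAAT in Lss, to GGGA, any base and TTTCC (a kappa B site) in Cxcl1 and Cxcl2, to TGACGTCA (a cyclic AMP response element) in Dusp1 and to TGATGNAA (a CEBP-ATF composite site) in Chac1.
Hmgcs1: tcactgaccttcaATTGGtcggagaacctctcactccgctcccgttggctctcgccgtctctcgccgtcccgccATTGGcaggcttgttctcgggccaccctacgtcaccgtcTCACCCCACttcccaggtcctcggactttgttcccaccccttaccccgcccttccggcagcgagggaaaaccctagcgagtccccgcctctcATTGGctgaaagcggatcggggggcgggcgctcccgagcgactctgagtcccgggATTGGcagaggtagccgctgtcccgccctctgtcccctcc
Lss: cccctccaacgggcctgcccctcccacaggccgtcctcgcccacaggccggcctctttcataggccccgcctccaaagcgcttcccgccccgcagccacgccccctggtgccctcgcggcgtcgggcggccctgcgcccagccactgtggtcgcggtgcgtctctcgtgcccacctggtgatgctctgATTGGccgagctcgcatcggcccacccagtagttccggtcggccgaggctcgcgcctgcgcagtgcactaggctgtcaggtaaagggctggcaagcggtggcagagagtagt
Cxcl1: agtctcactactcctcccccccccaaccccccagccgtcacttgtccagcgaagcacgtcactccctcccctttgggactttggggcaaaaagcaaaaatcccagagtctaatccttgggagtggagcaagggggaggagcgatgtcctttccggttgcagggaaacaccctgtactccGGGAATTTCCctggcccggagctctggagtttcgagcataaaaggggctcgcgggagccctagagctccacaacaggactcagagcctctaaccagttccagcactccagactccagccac
Cxcl2: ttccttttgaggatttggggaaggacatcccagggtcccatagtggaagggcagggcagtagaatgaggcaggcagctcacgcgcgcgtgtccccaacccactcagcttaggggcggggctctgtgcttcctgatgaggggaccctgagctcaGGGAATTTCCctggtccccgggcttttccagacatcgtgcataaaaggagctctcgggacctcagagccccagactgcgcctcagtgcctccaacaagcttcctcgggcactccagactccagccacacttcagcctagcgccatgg
Dusp1: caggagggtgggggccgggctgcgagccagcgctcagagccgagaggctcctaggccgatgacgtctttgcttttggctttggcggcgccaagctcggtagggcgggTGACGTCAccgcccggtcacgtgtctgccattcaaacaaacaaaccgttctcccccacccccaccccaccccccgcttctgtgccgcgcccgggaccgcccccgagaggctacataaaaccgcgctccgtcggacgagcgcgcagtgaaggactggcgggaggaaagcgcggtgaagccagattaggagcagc
Chac1: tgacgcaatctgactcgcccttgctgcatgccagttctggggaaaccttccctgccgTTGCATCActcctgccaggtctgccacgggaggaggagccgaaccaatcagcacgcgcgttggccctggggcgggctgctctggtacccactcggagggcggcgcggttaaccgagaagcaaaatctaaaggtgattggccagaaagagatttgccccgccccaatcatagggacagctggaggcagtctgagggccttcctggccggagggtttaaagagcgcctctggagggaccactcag

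The motifs were searched on both strands in the windows of 27025 genes. CCAAT was found in 15 of the 16 cholesterol enzyme genes that have a window, against 41.1% of all genes, and it was also found in 21 of 26 stress response genes. TCACNCCAC was found in Hmgcs1 alone of the 16, against 1.44% of all genes. The kappa B letters were found in Cxcl1, Cxcl2 and Cxcl3 of 18 chemokine genes, against 0.466% of all genes. TGACGTCA was found in 3 of 21 immediate early genes (Dusp1, Btg2 and Maff), against 2.03%, and the CArG box in 2 of the 21 (Egr2 and Zfp36), against 1.81%. TGATGNAA was found in 7 of 26 stress response genes, against 4.51%, and GAAA, any 2 bases and GAAA, the interferon-stimulated response element core, in 17 of 31 interferon genes, against 3.99%. No motif contains another, and TGACGTCA reads the same on both strands. A match describes the letters in these windows only.

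Library totals were similar, 98006360 to 106646895 counts in the knock-out and 96908660 to 115609880 in the APOE44 group, with RNA integrity numbers of 9.6 to 9.9 and 9.7 to 10. The 20 markers of microglia and macrophages summed to 29774 to 32116 counts per 1000000 (CPM) in the knock-out and 29564 to 34898 in the APOE44 libraries, and every one of the 20 was detected in both groups. APOE44 replicates 3 and 6 and APOE33 replicate 2 stood apart by their neuron markers, which summed to 8.88 to 11.2 CPM there and to 2.90 CPM or less in the other 13 microglia libraries. Counts of calls without these 3 libraries are given for some of the results below.

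The edgeR quasi-likelihood fit tested 17143 genes, and 4616 of them (26.9%) differed between knock-out and APOE44 microglia at an adjusted p under 0.05. Of these, 2327 were higher in the knock-out (13.6% of all tested genes) and 2289 were lower (13.4%). Most differences were small: the median size among called genes was 0.36 on the log2 scale, and 790 genes (4.61%) passed with a difference of at least 1, 369 higher (2.15%) and 421 lower (2.46%). Against APOE33 microglia the same knock-out libraries gave 3899 calls (22.7%), while APOE44 against APOE33 gave 144 (0.840%), 65 higher and 79 lower (0.379% and 0.461%). The comparisons share libraries pairwise. The number of calls against APOE44 was 1854 in a fit of male libraries alone, 3 of each group with the 2 of APOE33.

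**Figure D1:**
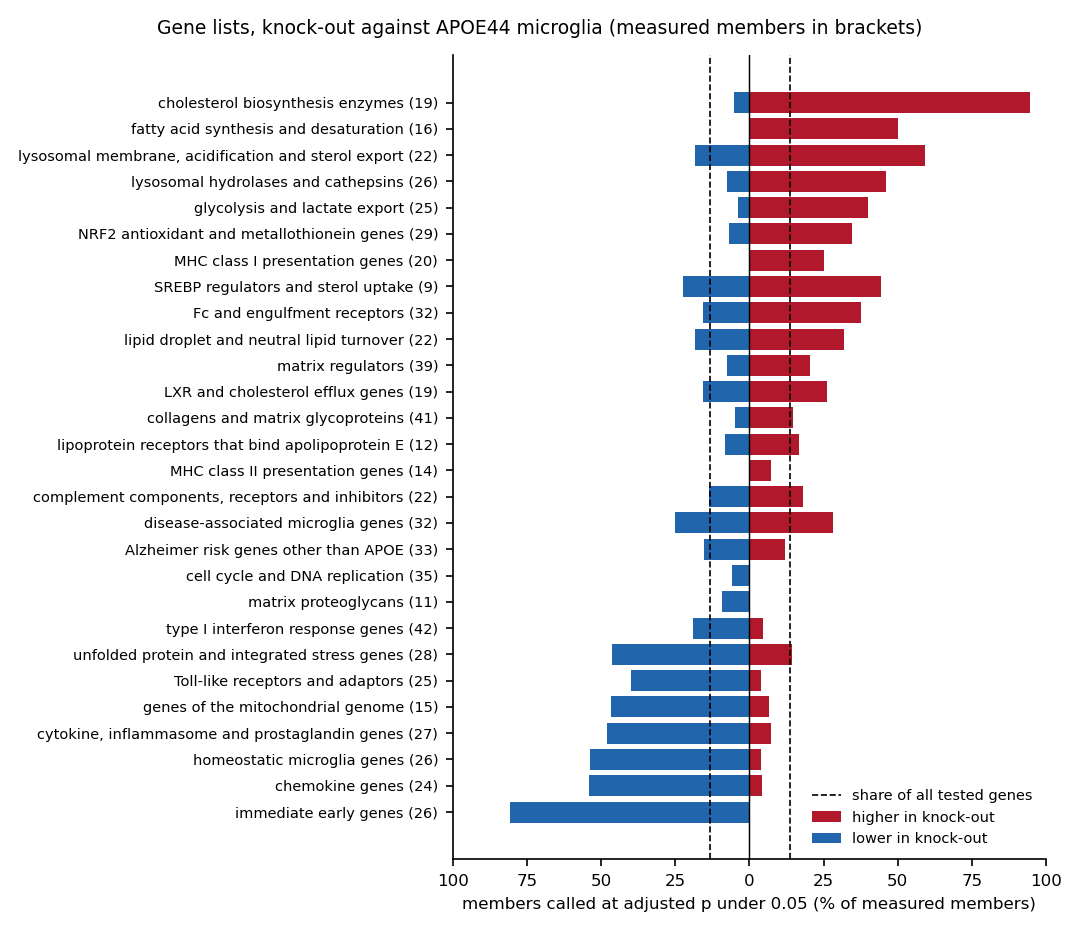
Bars give, for each gene list, the percentage of measured members called higher (red, right) or lower (blue, left) in knock-out than in APOE44 microglia at an adjusted p under 0.05, with the number measured in brackets, and dashed lines mark the share of all tested genes (13.6% higher, 13.4% lower). Cholesterol enzymes are at the top with 18 of 19 higher and immediate early genes at the bottom with 21 of 26 lower.

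Apoe itself, the targeted gene, was measured first. The row for mouse Apoe (chr7:19696109-19699188, GRCm38, minus strand) held 14.7, 7.82, 6.22 and 23.2 CPM in the 4 knock-out libraries and 39.1 to 50.7 (median 45.8) in the APOE44 libraries. The groups did not overlap, and the log2 difference was -1.81 ± 0.32 (SE, adjusted p = 0.000948). Unnormalised, the same row held 39026 to 50194 CPM in the wild-type microglia of batch 2. APOE33 microglia held 37.6 to 68.9 CPM, overlapping APOE44, and the row for the mouse gene gives no measure of the human transcript. Knock-out replicates 1 and 4 held more Apoe counts than replicates 2 and 3, and the same division appears in several genes below.

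Genes beside Apoe also differed. Within 1 Mb of Apoe, 18 of 55 tested genes were called, against 26.9% of all genes, and 7 of the 55 passed with a difference of at least 1, against 4.61%. Between 1 and 5 Mb the counts were 13 of 56 and 0 of 56, and between 5 and 20 Mb they were 80 of 362 and 14 of 362. Apoc4, which encodes a small apolipoprotein and lies in the same cluster as Apoe (chr7:19678083-19681479), was at 6.93, 11.8, 8.34 and 7.60 CPM in the knock-out and at 0.443 to 1.68 (median 0.676) CPM in APOE44 microglia. It had the largest rise of the genes named by size, 3.27 ± 0.50 (SE, adjusted p = 0.000325). Apoc1, which lies between Apoc4 and Apoe, overlapped between the groups at 16.3 to 47.9 CPM against 14.6 to 51.6 (median 27.8). Dmpk, a muscle-associated kinase (chr7:19083849-19093821), was lower, at 1.07, 1.23, 0.740 and 1.499 CPM against 4.14 to 7.27, with a difference of -2.27 ± 0.21 (SE, adjusted p = 3.77e-06). A deletion and a human replacement at the locus cannot be told apart here from sequence that differs between the lines around it.

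Of 19 enzymes of cholesterol synthesis, 18 rose and 1, Lbr, fell, and in each of the 18 every knock-out library lay above every APOE44 library (12.6% of all tested genes did so). The median of the list was 1.51 on the log2 scale, beside -0.0094 for all tested genes. All 18 kept an adjusted p under 0.05 with any 1 library of either group left out and in male libraries alone. Against APOE33 microglia the knock-out showed 18 rises and 1 fall (10.9% and 11.9% of all genes) with a median of 1.49, and APOE44 against APOE33 had a median of -0.014.

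Early steps build mevalonate and the isoprenoid units. Hmgcs1, which condenses acetoacetyl-CoA and acetyl-CoA, was at 145, 118, 138 and 127 CPM in the knock-out against 43.6 to 71.8 (median 53.1) in APOE44 microglia, a difference of 1.27 ± 0.22 (SE, adjusted p = 0.000997). The lowest knock-out library was above the highest APOE44 library. Acat2 rose by 1.73, the kinases Mvk and Pmvk by 0.85 and 1.03, the decarboxylase Mvd by 1.61, Idi1 by 1.73 and the prenyl synthase Fdps by 1.90 on the log2 scale.

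Later steps make squalene, close the ring and trim it to cholesterol. Sqle, which oxidises squalene and is a control point of the pathway, was at 116.2, 88.7, 115 and 94.3 CPM against 21.2 to 44.2 (median 28.2), a difference of 1.78 ± 0.36 (SE, adjusted p = 0.00242). Fdft1, Lss and Cyp51, which make squalene, lanosterol and its demethylated product, rose by 1.72, 1.71 and 1.48. Msmo1, Nsdhl, Hsd17b7, Sc5d and Dhcr7 rose by 1.53, 1.21, 1.63, 1.51 and 1.14. Ebp rose least, by 0.27.

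The sterol C14-reduction is shared by Tm7sf2 and Lbr, and these moved apart. Tm7sf2 rose by 1.28 ± 0.11 (SE, adjusted p = 2.27e-06). Lbr, whose protein is also an anchor of the nuclear envelope, was lower, at 3.54, 7.23, 5.63 and 3.93 CPM against 7.43 to 8.94, a difference of -0.66 ± 0.17 (SE, adjusted p = 0.0103). Without knock-out replicate 1 the adjusted p of Lbr was 0.0643.

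**Figure D2:**
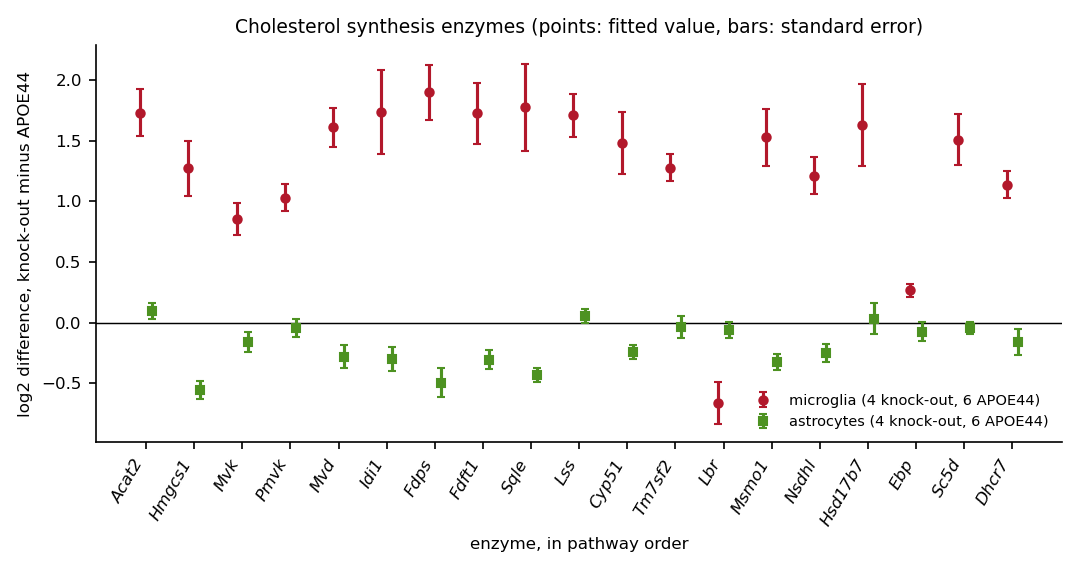
Points give the log2 difference, knock-out minus APOE44, and bars the standard error for 19 cholesterol synthesis enzymes in pathway order, in microglia (red) and astrocytes (green). In microglia 18 enzymes lie above 0 and Lbr lies below it, while the astrocyte values stay between -0.55 and 0.094.

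Among the genes that regulate sterol synthesis and uptake, 4 of 9 measured rose and 2 fell. Insig1, which retains SCAP in the endoplasmic reticulum, was at 299, 213, 249 and 238 CPM against 82.7 to 112 (median 101.2), a difference of 1.38 ± 0.16 (SE, adjusted p = 4.15e-05). Stard4, a soluble sterol carrier, rose by 1.31 ± 0.22 (SE, adjusted p = 0.000704). Srebf2, which encodes SREBP2, rose by 0.62 ± 0.11 (SE, adjusted p = 0.000641), and Srebf1 by 0.34 ± 0.12 (SE, adjusted p = 0.0475). The call for Srebf1 was lost in 8 of the 10 fits that left out 1 library. Insig2 and Mylip, a regulator under liver X receptor control, fell by 0.16 and 0.34 on the log2 scale, and Mylip missed the threshold without knock-out replicate 1 (adjusted p = 0.08), knock-out replicate 3 (0.0753) or APOE44 replicate 5 (0.0663). Without the 3 libraries that stood apart, neither Srebf1 (adjusted p = 0.0541) nor Mylip (0.0534) passed.

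Among receptors that bind apolipoprotein E, 2 of 12 rose and 1 fell, close to the 26.9% called among all genes. Lrp8 rose by 0.75 ± 0.17 (SE, adjusted p = 0.00451) and the HDL receptor gene Scarb1 by 0.47 ± 0.075 (SE, adjusted p = 0.000273). Sdc4, a heparan sulphate proteoglycan, was lower, at 29.8, 27.3, 23.7 and 28.7 CPM against 37.8 to 56.6, a difference of -0.72 ± 0.10 (SE, adjusted p = 0.000145). APOE44 microglia also differed from APOE33 microglia in Sdc4 (0.42 ± 0.091, adjusted p = 0.0432). Lrp1, an endocytic receptor for many ligands, was at 3839, 2917, 2400.2 and 3436 CPM against 2096 to 3142, with overlapping groups (adjusted p = 0.214). Trem2, a lipid receptor of microglia, also overlapped, at 1134 to 1357 CPM against 1029 to 1244.

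Genes of the liver X receptors and of sterol efflux did not move together. Of 19 measured, 5 rose and 3 fell, and the median was 0.0086. The falls include the row for mouse Apoe, a gene altered in both genotypes, and the rises include Apoc4 of the same locus. Without Apoe, 5 of 18 rose and 2 fell (Mylip and Arl4c). Nr1h3, which encodes liver X receptor alpha, was at 21.7, 19.5, 21.7 and 27.4 CPM in the knock-out against 6.07 to 7.95 (median 7.26), a difference of 1.68 ± 0.20 (SE, adjusted p = 5.10e-05). Smpdl3a, a phosphodiesterase under liver X receptor control, rose by 0.79 ± 0.11 (SE, adjusted p = 9.53e-05), and Myo5a by 0.32 ± 0.049 (SE, adjusted p = 0.000217). The efflux transporters overlapped: Abca1 was at 1308 to 1582 CPM against 1344 to 2053 (adjusted p = 0.259), and Abcg1 at 139 to 166 against 154 to 241 (adjusted p = 0.363). Scd1, a desaturase that both liver X receptors and SREBP1 can raise, ranged from 1.92 to 18.8 CPM within APOE44 and from 0.893 to 2.42 in the knock-out (adjusted p = 0.158).

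Fatty acid synthesis rose in 8 of 16 measured genes, with a list median of 0.41. Fads1, a desaturase for polyunsaturated fatty acids, was at 224, 251, 255 and 222 CPM against 143 to 174 (median 148), a difference of 0.67 ± 0.067 (SE, adjusted p = 7.43e-06). Acly, which supplies cytosolic acetyl-CoA, rose by 0.63, Fasn, the fatty acid synthase, by 0.71, Elovl5 by 0.38 and Fads2 by 1.40. Elovl6 was called at 1.07 ± 0.35 (SE, adjusted p = 0.0372), but its groups overlapped and the call was lost in 8 of the 10 fits that left out 1 library. The count of rises was 4 in males alone.

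Lipid droplet and neutral lipid genes split, with 7 rises and 4 falls among 22. The rises included Fabp5 and Fabp4, fatty acid binding proteins, at 1344, 736, 975 and 985 CPM against 388 to 541 and at 169.6, 73.8, 104 and 106 against 28.0 to 48.8, with differences of 1.16 ± 0.17 and 1.51 ± 0.27. Acsl3, which activates fatty acids for droplet growth, rose by 0.92 ± 0.080 (SE, adjusted p = 2.27e-06), and the droplet coat gene Plin3 by 0.39 ± 0.046 (SE, adjusted p = 3.02e-05). Cd36, a scavenger receptor and fatty acid importer, was at 89.9, 99.7, 138 and 107 CPM against 186 to 289 (median 223), lower in every knock-out library, a difference of -1.02 ± 0.14 (SE, adjusted p = 9.31e-05). Plin2, the coat protein most often used to mark droplets, overlapped, at 124 to 178 CPM against 135 to 209.7 (adjusted p = 0.24).

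Among lysosomal hydrolases and cathepsins 12 of 26 rose and 2 fell, and among membrane, proton pump and sterol export genes 13 of 22 rose and 4 fell, with list medians of 0.19 and 0.19. Both counts of rises fell to 6 without knock-out replicate 1, the only female of its group, and to 5 in males alone. Without the 3 libraries that stood apart they were 8 and 10. Npc1, which exports cholesterol from the lysosome, was at 521, 449.7, 484 and 492.6 CPM against 294 to 365 (median 343), a difference of 0.53 ± 0.067 (SE, adjusted p = 4.62e-05). Atp6v0d2, a proton pump subunit of macrophages, rose by 0.86 ± 0.11 (SE, adjusted p = 8.70e-05). The hydrolase genes Idua, Neu1, Sgsh and Tpp1 rose by 0.49, 0.26, 0.33 and 0.44, and Cd68, a lysosomal membrane protein of macrophages, by 0.46. Gpnmb, a lysosomal glycoprotein of lipid-laden macrophages, was at 16219, 7526, 10299 and 11008 CPM against 4036 to 6528 (median 4743), with no overlap and a difference of 1.19 ± 0.21 (SE, adjusted p = 0.000727).

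Among Fc and engulfment receptors 12 of 32 members were higher and 5 lower, and Marco was also among the 12 largest rises. Marco, a scavenger receptor for modified lipoproteins and bacteria (chr1:120474538-120505024, GRCm38), was at 59.2, 71.1, 67.4 and 84.2 CPM in the knock-out against 5.11 to 18.3 (median 9.64) in APOE44 microglia. Its difference was 2.98 ± 0.39 (SE, adjusted p = 0.000122), and the groups did not overlap. Fcgr2b, the inhibitory Fc receptor, was at 1441, 1373, 1512 and 1427 CPM against 784 to 931 (median 874), a difference of 0.73 ± 0.067 (SE, adjusted p = 3.33e-06). Scarf1 rose by 0.83 ± 0.14 (SE, adjusted p = 0.000442). Outside the list, Cd5l, a secreted scavenger protein of macrophages, ran from 30.3 to 136 CPM in APOE44 libraries and from 111 to 393 in the knock-out. Pirb, an inhibitory receptor of the list, stepped up from APOE33 (5.56 to 14.1 CPM) through APOE44 (14.9 to 31.9) to the knock-out (51.5 to 63.4), and both differences from APOE44 were called (adjusted p = 0.00181 and 0.00882). It lies on chromosome 7, as Apoe does, near Myadm, Lilra5 and Eps8l1, which were also called between APOE44 and APOE33. Line differences and genotype cannot be told apart for Pirb.

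Cd14, the co-receptor for lipopolysaccharide, went the other way, at 159.6, 193, 183 and 194 CPM against 395 to 645 (median 433), a difference of -1.39 ± 0.25 (SE, adjusted p = 0.00109). Other large rises by size were Fcna, a ficolin of macrophages, at 10.3, 6.98, 7.57 and 7.39 CPM against 1.02 to 2.21, and Cd38, an NAD-consuming surface enzyme, at 36.5, 96.5, 69.4 and 45.1 CPM against 5.61 to 24.7. Hpse, the heparanase, was at 79.9, 79.6, 96.2 and 73.8 CPM against 12.7 to 30.4. The log2 differences of the 3 genes were 2.49 ± 0.23, 2.44 ± 0.42 and 2.05 ± 0.22. Among the 12 largest rises were also Cgnl1 (2.84), Snhg11, a non-coding host gene (2.82), Gfra4 (2.37) and Tanc1 (2.22). Each was higher without overlap, as were 12.6% of all tested genes, and a choice by size favours such separation. Mcoln3, a lysosomal cation channel, was called at 2.72 ± 0.52 (SE, adjusted p = 0.0017) with very uneven knock-out libraries, 22.6, 1.78, 4.93 and 15.5 CPM against 1.11 to 2.16, and missed the threshold in males alone (adjusted p = 0.111).

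Of the 7 markers of border macrophages and monocytes measured, 5 were called higher (3 in males alone), and the 12 genes of the list summed to 1454 to 1608 CPM in the knock-out and 969 to 1257 in APOE44 microglia, without overlap. Mrc1, the mannose receptor, was at 285, 386, 379.9 and 295 CPM against 82.9 to 213 (median 115), a difference of 1.51 ± 0.25 (SE, adjusted p = 0.000679). Cbr2, a carbonyl reductase, had a difference of 2.45 ± 0.48 (SE, adjusted p = 0.00136). The platelet factor gene Pf4 had one of 0.73 ± 0.17 and Ms4a7 one of 0.27 ± 0.073. Ms4a7 alone, at 795 to 998 CPM in APOE44, makes up most of the sum there. Its call was lost in males alone (adjusted p = 0.106) and with the replicate number as a block (0.0568). The defining gene Cd209f was at 0 counts in both groups. In bulk libraries a larger share of such cells and more RNA per cell cannot be told apart, and the part of these cells in the scavenger receptor results was not tested.

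Homeostatic microglia genes, which mark resting cells in the healthy brain, fell in 14 of 26 cases and rose in 1, with a list median of -0.44. Tmem119 was at 104, 169, 121 and 133 CPM in the knock-out against 368 to 499 (median 419.9) in APOE44 microglia, a difference of -1.75 ± 0.15 (SE, adjusted p = 2.51e-06). Sall1, a transcription factor that sets microglial identity, was at 11.4, 4.47, 5.08 and 11.9 CPM against 31.4 to 65.0 (median 35.6), a difference of -2.27 ± 0.34 (SE, adjusted p = 0.000338). Replicates 2 and 3 of the knock-out were the lowest in Sall1, as in Apoe. Olfml3 and the related factor Sall3 fell by 0.93 and 2.02 on the log2 scale. Jun, 1 of the 14, is also in the immediate early list. P2ry12, the purinergic receptor of surveying microglia, was called lower at -0.63 ± 0.18 (SE, adjusted p = 0.0176), but missed the threshold without knock-out replicate 1 (0.1) or APOE44 replicate 5 (0.0506). Entpd1, an ATP-degrading enzyme, was the 1 rise, at 247, 255, 253 and 240.1 CPM against 125 to 198.

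The list was not lower throughout. Cx3cr1 and Csf1r, receptors of the lineage, overlapped between the groups at 2358 to 2830.1 CPM against 2569 to 3022 and at 2158 to 2709 against 2381 to 3238 (adjusted p = 0.288 and 0.176). Aif1, the gene of the pan-microglial marker IBA1, was at 199.9 to 241 CPM against 195 to 241 (adjusted p = 0.648). The lineage factor genes Spi1 and Mef2c fell by 0.22 and 0.32 on the log2 scale. The number of homeostatic genes that fell was 12 to 14 with 1 library left out and 6 in males alone.

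Disease-associated microglia genes, which rise around plaques and damaged myelin, divided into 9 rises and 8 falls among 32. Of the 8 falls, 1 is the row for mouse Apoe, a gene altered in both genotypes, and this row does not measure the human transcript. The other 31 members gave 9 rises and 7 falls. Fabp5, Gpnmb, Axl (0.70) and Cd68 were among the rises. Ch25h, which makes 25-hydroxycholesterol, was at 42.0, 40.8, 52.1 and 52.7 CPM against 85.4 to 135 (median 112), a difference of -1.28 ± 0.15 (SE, adjusted p = 4.23e-05). Csf1 was lower, at 10.4, 7.09, 6.83 and 9.26 CPM against 12.8 to 19.9, a difference of -0.95 ± 0.16 (SE, adjusted p = 0.000577). Spp1, which encodes the secreted protein osteopontin, overlapped at 8593 to 13043 CPM against 7045 to 9727 (adjusted p = 0.0904). The rises numbered 5 without knock-out replicate 1, and the falls 4 without knock-out replicate 2. Males alone gave 5 rises and 3 falls, and the fit without the 3 libraries that stood apart gave 7 and 8.

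Immediate early genes, which respond within minutes to signals, calcium or handling, numbered 26. Of these, 21 fell, all 26 fitted differences lay below 0 and the list median was -0.85. Without knock-out replicate 1, and in males alone, the number that fell was 13. Without the 3 libraries that stood apart it was 17. Dusp1, the phosphatase that ends MAP kinase signals, was at 4.75, 5.54, 6.13 and 6.42 CPM in the knock-out against 28.3 to 54.3 (median 46.6) in APOE44 microglia, a difference of -3.02 ± 0.38 (SE, adjusted p = 8.92e-05). Klf2 was at 1.22, 1.505, 1.28 and 1.86 CPM against 5.37 to 17.8 (median 13.9), and Klf4 at 0.573, 0.582, 0.780 and 0.788 against 2.48 to 6.23 (median 4.40), with differences of -3.09 ± 0.73 and -2.66 ± 0.29. The nuclear receptor gene Nr4a3 was at 0.331, 0.481, 0.440 and 0.506 CPM against 1.85 to 4.06 (median 3.28), a difference of -2.80 ± 0.29 (SE, adjusted p = 1.03e-05).

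In these 4 genes the knock-out libraries were all below the APOE44 libraries, and the groups did not overlap. All 4 are among the 12 largest falls, a choice by size that favours such separation. Myc, Klf6, Jun and Fos fell by 1.35, 1.12, 0.74 and 1.07 on the log2 scale. Egr1 (-1.59 ± 0.45) and Btg2 (-1.08 ± 0.31) did not overlap between the groups, but without knock-out replicate 1 their adjusted p was 0.0635 and 0.0746. Fosb, which lies within 1 Mb of Apoe, fell by 2.04. Outside the list, Gem and Gadd45b, both induced by the same kinds of signal, were at 0.502 to 1.07 CPM against 3.18 to 8.15 and at 2.06 to 3.51 against 7.13 to 27.0. Notch4, a receptor gene among the 12 largest falls, was at 1.19, 1.18, 0.800 and 1.26 CPM against 3.42 to 8.96, a difference of -2.48 ± 0.26 (SE, adjusted p = 1.39e-05).

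APOE33 microglia spread more widely in some of these genes. Dusp1 ran from 16.1 to 47.5 CPM and Klf2 from 1.46 to 15.3 CPM in the 6 APOE33 libraries, all above every knock-out library for Dusp1 but overlapping the knock-out range for Klf2. Against APOE33, 18 of the 26 immediate early genes were lower in the knock-out, with a median of -0.91.

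**Figure D3:**
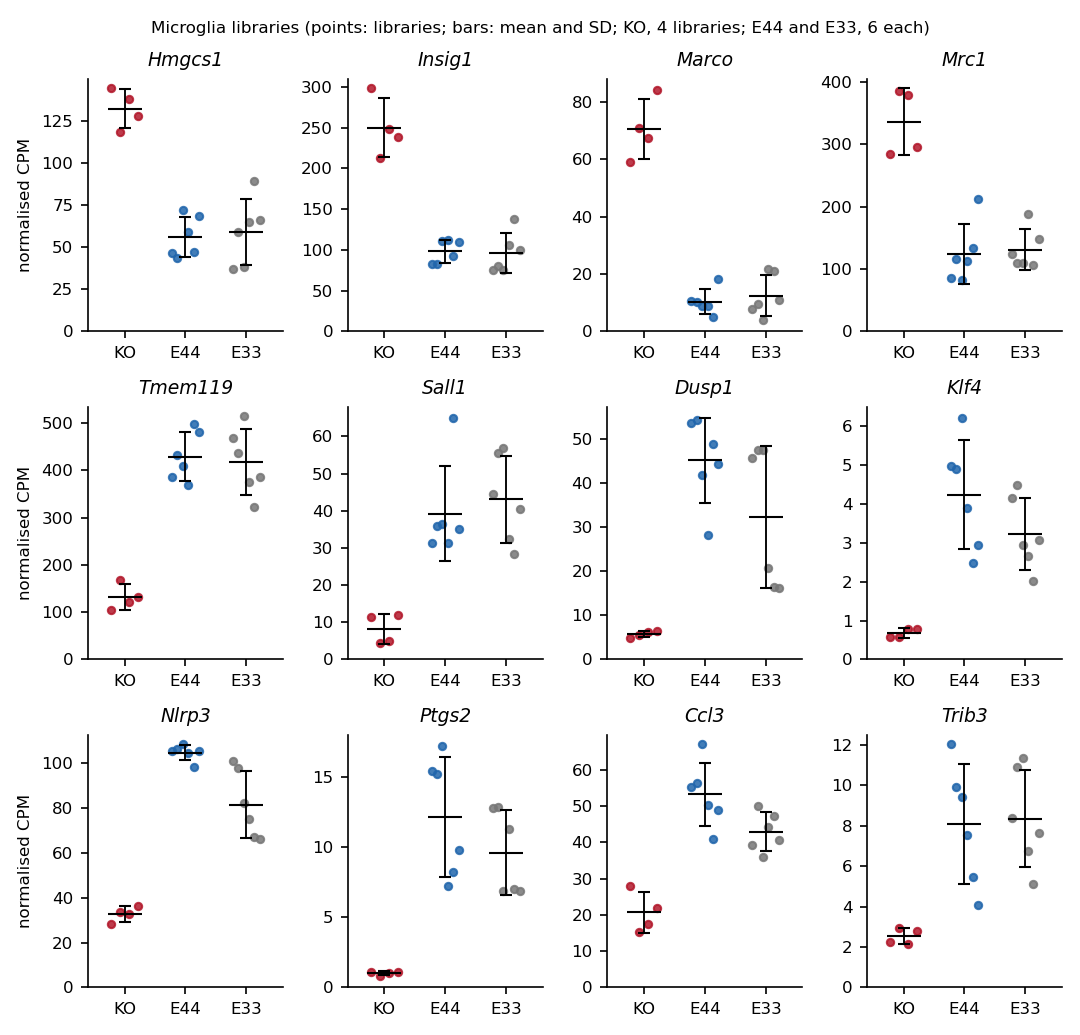
Each point is 1 microglia library and bars give the mean and SD in normalised CPM for 12 genes, in knock-out (KO, n = 4), APOE44 (E44, n = 6) and APOE33 (E33, n = 6) cells. The knock-out libraries lie above every APOE44 library in the first 4 genes and below every one in the other 8. The genes were chosen with their values known.

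Chemokines fell in 13 of 24 measured genes and rose in 1, with a list median of -0.73. Ccl3, which attracts monocytes, was at 28.0, 15.3, 17.4 and 22.1 CPM in the knock-out against 40.9 to 67.2 (median 52.9), a difference of -1.33 ± 0.16 (SE, adjusted p = 4.35e-05). Ccl2, the main monocyte attractant, was at 0.695, 0.381, 0.560 and 0.701 CPM against 2.605 to 6.19 (median 3.53), a difference of -2.67 ± 0.33 (SE, adjusted p = 5.10e-05). The neutrophil attractant Cxcl2 was at 1.21, 3.68, 3.25 and 3.02 CPM against 10.1 to 46.1 (median 32.4), a difference of -3.50 ± 0.51 (SE, adjusted p = 0.000237). Cxcl1, whose window above holds the same kappa B letters as that of Cxcl2, was at 0 in 2 of the 4 knock-out libraries and ran from 0.555 to 4.32 CPM in APOE44 microglia. Ccl6 was the rise, at 18.7 to 21.9 CPM against 9.98 to 16.4. The number that fell was 11 to 13 with 1 library left out.

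Cytokine, inflammasome and prostaglandin genes fell in 13 of 27 and rose in 2, and in males alone 8 fell. Nlrp3, the sensor of the inflammasome, was at 28.1, 33.7, 32.6 and 36.5 CPM against 98.4 to 109 (median 105), a difference of -1.67 ± 0.12 (SE, adjusted p = 8.49e-07). Ptgs2, the inducible cyclooxygenase, was at 1.12, 0.802, 1.06 and 1.11 CPM against 7.24 to 17.2 (median 12.5), a difference of -3.55 ± 0.33 (SE, adjusted p = 9.29e-06). In both genes, which were named for a small p in this list, every knock-out library lay below every APOE44 library. Pdgfa fell by 0.58 and Tnf by 0.47 on the log2 scale. Il1b was at 5.02 to 10.4 CPM against 12.4 to 31.6 (adjusted p = 0.013), and at 0.0658 without knock-out replicate 1. Arg1, an arginase of alternatively activated macrophages, was 1 of the 2 rises, at 2.13, 2.46, 3.62 and 2.21 CPM against 0.674 to 1.36.

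Among Toll-like receptors and their adaptors 10 of 25 fell and 1 rose, and the list median was -0.037. In males alone 5 fell. Tlr2, the receptor for bacterial lipopeptides, was at 293, 357, 373 and 364 CPM against 515 to 625.1, a difference of -0.73 ± 0.083 (SE, adjusted p = 2.11e-05). Nfkbia and Tnfaip3, inhibitors that NF-kappa B itself induces, were at 101.2, 106, 106 and 115 CPM against 151 to 179 and at 125, 90.7, 105 and 115 against 160.4 to 194, with differences of -0.63 ± 0.053 and -0.67 ± 0.11.

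Among stress response genes, 13 of 28 fell and 4 rose. Atf4, the central factor of the integrated stress response, was at 90.7, 84.8, 95.6 and 91.2 CPM against 134 to 191 (median 169), a difference of -0.87 ± 0.11 (SE, adjusted p = 4.18e-05). Trib3, one of its targets and 1 of the 13, was at 2.25, 2.95, 2.16 and 2.80 CPM against 4.08 to 12.02 (median 8.48), and Chac1, another target, which degrades glutathione, at 0.176, 0.381, 0.220 and 0.311 against 0.499 to 1.41 (median 0.883), with differences of -1.73 ± 0.29 and -1.83 ± 0.46. Ppp1r15a, which restores translation, fell by 1.40, Ddit3 by 0.64, Herpud1 by 0.62, and the serine synthesis genes Psat1 and Phgdh by 0.80 and 0.96 on the log2 scale. The chaperone gene Hspa5, the classical marker of the unfolded protein response, overlapped at 746 to 861 CPM against 706 to 979.5 (adjusted p = 0.942), and the lectin chaperone Canx was among the rises, at 0.30 ± 0.053 (SE, adjusted p = 0.00058).

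Type I interferon response genes had a negative median, -0.45, with 8 of 42 called lower and 2 higher, beside 13.4% and 13.6% of all tested genes. The 8 became 3 without knock-out replicate 1, in males alone, or without the 3 libraries that stood apart, and 15 without APOE44 replicate 5. Ifi204 and Ifi207, DNA sensors, fell by 0.59 and 0.67, and Oasl1 by 2.17. Ifit1 was at 4.83, 5.24, 5.40 and 2.92 CPM against 3.03 to 18.6 (median 11.7) (adjusted p = 0.11, 0.0494 without APOE44 replicate 5), with overlap. Against APOE33 the list median of the knock-out was 0.018, with 4 members higher, and that of APOE44 against APOE33 was 0.63. Ifi27 was 1 of the 2 rises (0.0108) and missed the threshold without knock-out replicate 1 (0.0863).

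In MHC class I presentation 5 of 20 genes rose and 0 fell, beside 13.6% and 13.4% of all tested genes. The rises included H2-D1 (0.35), H2-K1 (0.29), H2-T22 (0.29) and the immunoproteasome subunit gene Psmb9 (0.43), and the list gave 1 rise in males alone. In class II presentation 1 of 14 passed, the co-stimulatory receptor gene Cd40, at 6.19, 6.87, 7.74 and 6.76 CPM against 3.65 to 4.88. Complement genes gave 4 rises and 3 falls among 22, beside 26.9% of all genes, and the rises ran from 2 without knock-out replicate 1 to 7. C3, the central component, was at 328, 525.9, 402 and 419 CPM against 213 to 268, a difference of 0.84 ± 0.13 (SE, adjusted p = 0.000359), and the protease gene C1ra rose by 1.68 ± 0.19 (SE, adjusted p = 2.12e-05). Cd59a, an inhibitor of the membrane attack complex, and Masp1 fell by 0.89 and 1.26.

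Of 25 glycolysis and lactate export genes 10 rose and 1 fell. Aldoc, which is also in the astrocyte marker list, was at 48.0, 37.7, 32.9 and 46.7 CPM against 11.96 to 21.2, a difference of 1.38 ± 0.18 (SE, adjusted p = 0.000106), and Pfkl, Pgam1 and Tpi1 rose by 0.50, 0.59 and 0.54. Slc2a3, a glucose transporter, was the fall, at 2.25, 1.37, 0.840 and 1.33 CPM against 4.34 to 6.48. Of 15 genes of the mitochondrial genome 7 fell and 1 rose, and in males alone 3 fell. Among the falls were mt-Rnr2 (-0.54) and mt-Nd1 (-0.38). The cytochrome b gene mt-Cytb was at 1061, 846, 976 and 1109.7 CPM against 1529 to 1738 (median 1600.2), a difference of -0.66 ± 0.081 (SE, adjusted p = 4.10e-05). Beside this, 8 of the 15 genes were higher in APOE44 than in APOE33 microglia (0.379% of all genes), and in the knock-out 2 were higher and 1 lower than in APOE33. mt-Nd3, the rise, was at 0.959 to 1.10 CPM against 0.103 to 0.249.

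NRF2 antioxidant and metallothionein genes gave 10 rises and 2 falls among 29, with Tkt, Gpx4, Txn1 and Mt1 up by 0.42, 0.26, 0.31 and 0.27. The 10 rises became 5 without knock-out replicate 1 and 4 in males alone. Beside 13.6% higher and 13.4% lower among all genes, collagens and matrix glycoproteins gave 6 rises and 2 falls among 41, matrix proteoglycans 1 fall among 11, and matrix regulators 8 rises and 3 falls among 39. Emilin2 was at 52.4, 62.3, 68.7 and 56.9 CPM against 24.1 to 34.1, Mmp14, a membrane matrix protease, at 243, 404, 355 and 325 against 146 to 202, and Adam19 at 16.1, 14.5, 18.0 and 14.8 against 51.9 to 55.7, with differences of 1.02 ± 0.15, 0.94 ± 0.14 and -1.79 ± 0.12. Thbs2, Igfbp5 and Mmp25 fell by 2.13, 2.05 and 2.82, and Col8a1 and Adam9 rose by 2.14 and 0.23. The rises of the matrix regulators numbered 4 without knock-out replicate 1, APOE44 replicate 1 or APOE44 replicate 2. In males alone the collagen list gave 1 rise and the matrix regulators 3. Without the 3 libraries that stood apart the collagen list gave 7 rises and 4 falls.

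Cell cycle genes gave 2 falls among 35, beside 13.4% of all genes called lower, while 30 of the 35 fitted differences lay below 0 (median -0.42). The falls were Mcm6 and Mcm7, by 0.35 and 0.60 on the log2 scale. Mcm7 missed the threshold without knock-out replicate 1 (0.136), knock-out replicate 4 (0.0729) or APOE44 replicate 5 (0.0562). It also missed it without the 3 libraries that stood apart (0.058). The proliferation marker Mki67 was uneven within the knock-out, at 6.59, 40.8, 21.2 and 9.90 CPM, and ran from 18.6 to 47.7 in APOE44. Alzheimer risk genes other than APOE gave 4 rises and 5 falls among 33, close to the 13.6% and 13.4% of all genes. Males alone gave 2 rises and 0 falls, and the fits with 1 library left out gave 2 to 5 rises and 4 to 9 falls. Without the 3 libraries that stood apart, 2 rose and 8 fell. App, the amyloid precursor gene, was at 859.8, 739, 814 and 819.9 CPM against 517 to 593 (median 563), a difference of 0.54 ± 0.077 (SE, adjusted p = 0.000113), and Cd33, an inhibitory sialic acid receptor, was lower, at 195 to 214 CPM against 227 to 315.

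For some genes the APOE44 libraries stood apart from APOE33 as well as from the knock-out. Of the 144 genes called between APOE44 and APOE33 microglia, 92 were also called between the knock-out and APOE44, and for 57 of these the knock-out was not called different from APOE33. These comparisons share the APOE44 libraries. Ncapg2, which encodes a condensin subunit (chr12:116405402-116463731, GRCm38), was at 88.8, 90.1, 91.3 and 81.0 CPM in the knock-out, 8.42 to 11.7 (median 9.11) in APOE44 and 56.5 to 62.3 (median 60.5) in APOE33 microglia. The knock-out exceeded APOE44 by 3.19 ± 0.079 (SE, adjusted p = 3.76e-13) and APOE33 by 0.54 ± 0.079. Plxnd1, a semaphorin receptor gene, was at 161 to 178 CPM in the knock-out, 441 to 501 in APOE44 and 112 to 142 in APOE33, so that APOE44 lay above both. Bid, a pro-apoptotic BCL2 relative, was at 33.6 to 35.6, 16.2 to 19.2 and 25.8 to 33.3 CPM, so that APOE44 lay below both.

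Several of the 144 genes called between APOE44 and APOE33 are neighbours, whether or not the knock-out differed from APOE44. Chromosome 7, which carries Apoe, held 29 of them among 1378 tested genes, and chromosome 6 held 23 among 903, beside 0.840% of all genes. Of the 29, 15 were also called between the knock-out and APOE44, and of the 23, 19 were. On chromosome 7, 20 of the 29 lay 5 to 20 Mb from Apoe, and 9 of these 20 were also called between the knock-out and APOE44. For some of the 20, APOE33 was the group apart. Lilra5 differed from APOE33 by 1.05 in the knock-out and 1.09 in APOE44, and Eps8l1 by 6.41 and 7.78. In the first 20 Mb of chromosome 6, 25 of 62 tested genes were called between knock-out and APOE44 and 10 of them with a difference of at least 1, or 16.1% against 4.61% of all genes. The window was chosen after the values were seen. It holds the imprinted neighbours Sgce and Peg10, with Peg10 at 1.30, 1.16, 0.920 and 1.15 CPM in the knock-out, 16.8 to 38.9 (median 28.4) in APOE44 and 5.57 to 8.87 (median 6.37) in APOE33. Sgce was at 6.86 to 11.5, 35.5 to 44.4 and 17.7 to 25.4 CPM in the same order, and St7 at 1.57 to 2.32, 5.43 to 6.01 and 2.43 to 2.998. In all 3 genes APOE44 was the highest group and the knock-out the lowest. Ica1 was at 1.40 to 3.24 CPM in the knock-out and 1.14 to 2.22 in APOE33, against 11.0 to 13.9 in APOE44. Near the end of chromosome 12, beside Ncapg2, Rapgef5 was at 75.2 to 82.1, 193 to 231 and 95.5 to 122 CPM. Line differences and genotype cannot be told apart for such genes.

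**Figure D4:**
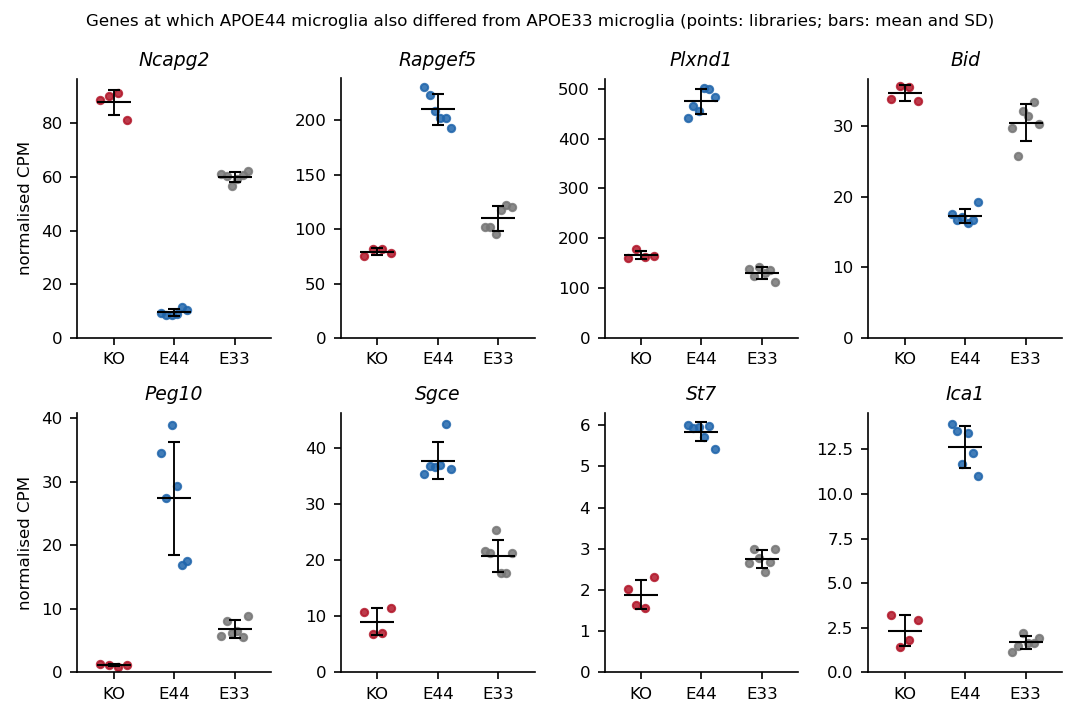
Each point is 1 microglia library and bars give the mean and SD in normalised CPM for 8 genes called both between knock-out (KO) and APOE44 (E44) and between APOE44 and APOE33 (E33). Ncapg2 is at 8.42 to 11.7 CPM in APOE44 and at 56.5 CPM or more in every other library, and Peg10 steps down from APOE44 through APOE33 to the knock-out.

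Some markers of other brain cells differed as well. The oligodendrocyte lineage list had 7 of 13 measured members lower and summed to 182 to 213 CPM in the knock-out against 261 to 328 in APOE44. In APOE33 it summed to 203 to 287 CPM, overlapping the knock-out. Mobp, a myelin protein gene, was at 0 in 3 of the 4 knock-out libraries and ran from 0.317 to 1.49 CPM in APOE44 (adjusted p = 0.00289). Mog, Ermn and Ugt8a had no count in any knock-out library. With a floor of 3 counts over the 4 knock-out libraries, they were at least 36.0-fold, 11.5-fold and 103-fold lower than in APOE44. Their levels in APOE44 were themselves low, with means of 0.265, 0.084 and 0.758 CPM. With these genes at their bounds the list median was -3.67, and as fitted it was -3.80. Cldn11, Cspg4 and Mag fell by 5.07, 1.27 and 0.90. Opalin and Gpr17 were at 0 in the knock-out too.

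Ncan, a brain proteoglycan that had the largest fall by the rule, was at 0.441, 0.100, 0.140 and 0.564 CPM against 2.77 to 36.1 (median 8.25), with APOE44 replicates far apart. Its call was lost without any 1 knock-out library or without APOE44 replicate 3 or 6 (adjusted p between 0.0525 and 0.111). The astrocyte list gave 2 rises, Aldh1l1 and the glycolysis gene Aldoc, and 1 fall among 14, beside 13.6% and 13.4% of all tested genes. Its median was -0.012, and it summed to 81.3 to 124 CPM against 39.4 to 114. Aldh1l1 was the clearest rise, at 27.8, 24.2, 28.9 and 22.4 CPM against 5.32 to 7.78. S100b was the fall, with overlapping groups, and lost its call in 7 of the 10 fits that left out 1 library. It also lost the call without the 3 libraries that stood apart (adjusted p = 0.1). Neuron markers summed to 0.943 to 2.90 CPM against 1.89 to 11.2, and 0 of 7 were called by edgeR, with 1 at an unadjusted p under 0.05. Gap43 had the smallest p of them (adjusted p = 0.122). The part of these cells in the results above was not tested, but without the 3 libraries that stood apart 4158 genes were called, 3811 of them among the 4616.

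Other marker lists were low and gave few calls. Endothelial markers summed to 149.9 to 255 CPM against 129 to 179, with Cldn5, Emcn and Erg at 0 in both groups and Pecam1 called lower at -1.42 on the log2 scale. Mural and meningeal markers summed to 1.24 to 1.70 CPM against 1.36 to 5.23, with Acta2 called higher (0.0167) but not without knock-out replicate 1 (0.0622) or 3 (0.052). The ependymal marker Foxj1 was called higher (adjusted p = 0.0307) and lost its call in 5 of the 10 fits. S100a8 was the 1 of 4 leukocyte markers called, higher by 1.27, in a list that summed to 5.37 to 6.55 CPM against 2.77 to 3.97. Erythrocyte markers summed to 0.121 CPM or less in both groups, and Alas2, the 1 gene measured, was not called (adjusted p = 0.598).

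**Figure D5:**
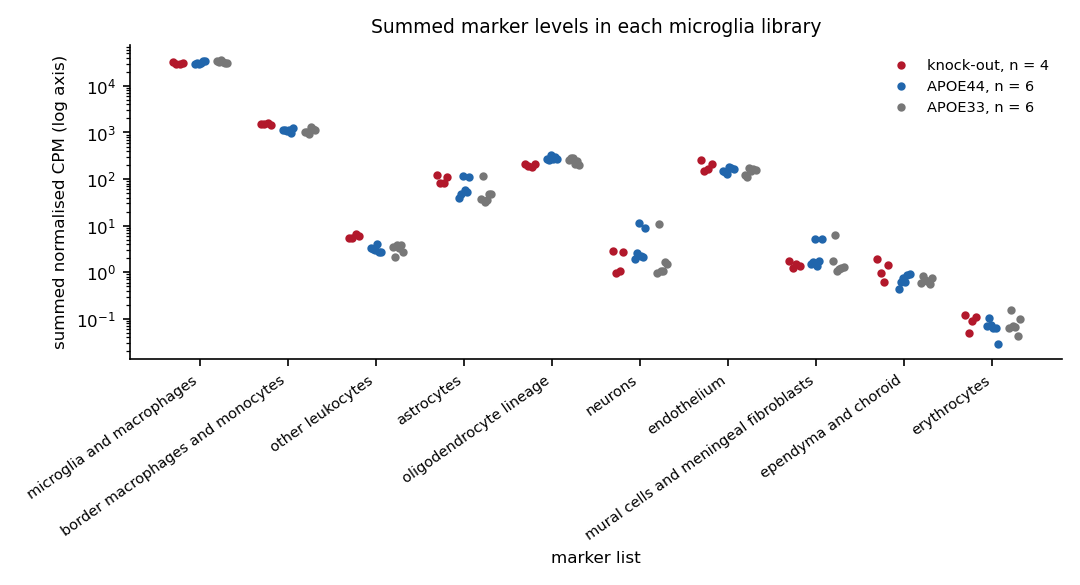
Each point is 1 microglia library, placed by the summed normalised CPM of a marker list on a log axis, for knock-out (red), APOE44 (blue) and APOE33 (grey) cells. Microglia markers sum to 29564 CPM or more in every library, border macrophage markers are higher in all 4 knock-out libraries, and 3 libraries are raised in neuron and mural markers.

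The same 2 genotypes were compared in astrocytes to see which differences belonged to microglia. In astrocytes 4653 of 20481 tested genes (22.7%) were called, 2246 higher and 2407 lower (11.0% and 11.8%). In a joint fit of 32 libraries the knock-out against APOE44 difference itself differed between the cell types for 3822 of 21647 genes (17.7%), 1808 more positive in microglia and 2014 more negative (8.35% and 9.30%). Among the 19 cholesterol enzymes the difference was more positive in microglia for 18 and more negative for 1. In astrocytes 9 of the 19 fell and the median was -0.16.

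Single enzymes show the contrast. Hmgcs1 fell in astrocytes, at 79.4 to 111 CPM in the knock-out against 132 to 153 in APOE44, and the microglial difference exceeded that of astrocytes by 1.82 ± 0.25 (adjusted p = 1.50e-05). Sqle fell in astrocytes as well, at 67.4 to 85.2 CPM against 97.7 to 108, with a gap between cell types of 2.20 ± 0.39 (adjusted p = 0.000244). For Mvd and Fads1 the gaps were 1.88 and 0.91. Npc1, higher in knock-out microglia, had an astrocyte difference of -0.29 (adjusted p = 0.00205).

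In astrocytes 14 of 25 immediate early genes fell and 2 rose, with a median of -0.70. Of 26 in the joint fit, 10 were more negative in microglia and 4 more positive. Klf4, Nr4a3, Dusp1 and Klf2 fell further in microglia, with gaps of -1.76, -1.74, -2.33 and -2.14. Fos and Egr1 had astrocyte differences of -3.30 ± 0.55 and -3.57 ± 0.57, beside -1.07 ± 0.18 and -1.59 ± 0.45 in microglia. Ptgs2 rose in astrocytes, at 1.04 to 2.25 CPM against 0.834 to 1.25, and its gap was -4.31 ± 0.41 (adjusted p = 7.60e-08). For Ccl2 the gap of -1.49 ± 0.64 did not pass (adjusted p = 0.11).

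The 8 named genes with the smallest p for the gap were Ncapg2, Map3k5, Dchs1, Fbxo9, St7, Ica1, Nat8l and Sgce, and in astrocytes Ncapg2, St7 and Sgce were not called between the 2 genotypes (adjusted p = 0.174, 0.871 and 0.2). Ica1 was lower in knock-out microglia and higher in knock-out astrocytes, at 4.83 to 7.15 CPM against 1.60 to 2.39. Map3k5, a stress-activated kinase, also changed in opposite directions, at 31.8 to 35.7 CPM against 40.4 to 47.7 in microglia and at 19.1 to 27.4 against 8.96 to 11.0 in astrocytes. Dchs1, a large cadherin, did the reverse, rising by 1.26 ± 0.12 in microglia and falling in astrocytes (-1.32 ± 0.15). Nat8l, which makes N-acetylaspartate, rose by 0.44 in microglia and fell in astrocytes (-0.90), and Fbxo9 fell in microglia (-0.71) and rose in astrocytes (0.23).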

How the data were processed

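The authors deposited raw counts per gene for 44 libraries, and these counts were used as they stand. Per the labels' protocols, total RNA (RNeasy) was turned into NEBNext Ultra libraries and sequenced in pairs of 150 bases. The submitters' processing notes name STAR 2.5.3a, featureCounts, edgeR 3.26.8 and DESeq2 3.14, and the only build they list is hg38; a mouse build is not given in the sources used here. Among 54146 gene identifiers 54079 matched GENCODE M21 (GRCm38), from which symbols and positions were taken. Of the counts between 1 and 9, 66.3% to 68.8% were even, so a count need not be an independent molecule.

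Groups and sexes came from the labels. The 16 microglia libraries of batch 1 were fitted with edgeR 4.0.16 (R 4.3.3): filterByExpr, TMM scaling, sex as a covariate, the robust quasi-likelihood test and Benjamini-Hochberg adjustment over all tested genes, with a call at an adjusted p under 0.05. Astrocytes were fitted alike, and a joint fit of 32 libraries tested the difference between cell types. CPM are TMM-normalised counts per 1000000, SE is the absolute log2 difference divided by the root of F, and no CPM is corrected for gene length. Replicates were compared in 21 pairs and none was a duplicate (lowest chi-square per gene 23.9). The scripts were tested on simulated counts.

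Named genes were Apoe, the 12 largest rises and 12 largest falls with a mean log2 CPM of at least 1, up to 4 called members of each of 28 gene lists and 10 marker lists, and the 8 smallest p of the joint fit; others were named after their values were seen. A few genes are not reported here and were left out of the lists and of the choice of named genes. Members, lists and rules were chosen with earlier results of these data known. Alternatives were another scaling, DESeq2 1.42.0, no filter, no sex covariate, a replicate block, males only, no APOE33 libraries, a fold requirement, each library left out, and 3 libraries left out together, the last chosen after seeing the data.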

Additional observations from a re-analysis of the deposited data

Results flagged for a closer look

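In groups of 4 or 6 libraries, 16 of 402 group-and-gene sets (3.98%) held 1 library whose gap to the nearest other library, as a share of the range of its group, passed Dixon's critical value, a criterion set so that chance passes about 1 group in 20. In APOE44 microglia replicate 3, mt-Nd3 was at 0.249 CPM, against 0.103 to 0.131 in the rest, and C1ra was at 2.31 CPM, against 1.23 to 1.61 in the rest, and Spi1 was at 425 CPM, against 375 to 390.0 in the rest. In APOE44 microglia replicate 4, Fos was at 31.4 CPM, against 45.3 to 52.2 in the rest. In APOE44 microglia replicate 5, Cd14 was at 645 CPM, against 395 to 481 in the rest, and Sall1 was at 65.0 CPM, against 31.4 to 36.3 in the rest, and Sall3 was at 35.9 CPM, against 20.7 to 25.4 in the rest, and Sgce was at 44.4 CPM, against 35.5 to 37.0 in the rest, and Ms4a7 was at 795 CPM, against 935 to 998 in the rest. In APOE44 microglia replicate 6, Cd5l was at 136 CPM, against 30.3 to 65.0 in the rest. In knock-out microglia replicate 1, Fasn was at 237 CPM, against 197 to 202 in the rest. In knock-out microglia replicate 2, Ppp1r15a was at 13.7 CPM, against 16.2 to 16.4 in the rest, and Hspa5 was at 746 CPM, against 844 to 861 in the rest, and mt-Rnr2 was at 402 CPM, against 471 to 483 in the rest, and Mobp was at 0.0401 CPM, against 0 in the rest. In knock-out microglia replicate 3, Notch4 was at 0.800 CPM, against 1.18 to 1.26 in the rest.

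The knock-out against APOE44 difference itself differed between microglia and astrocytes in the joint edgeR test for 17 genes named above. On the log2 scale, microglia minus astrocytes, it was more positive in microglia for Ncapg2 (3.37), Dchs1 (2.58), Nat8l (1.33), Hmgcs1 (1.82), Sqle (2.20), Mvd (1.88), Fads1 (0.91). It was more negative in microglia for Map3k5 (-1.61), Fbxo9 (-0.95), St7 (-1.67), Ica1 (-4.03), Sgce (-1.95), Ptgs2 (-4.31), Klf2 (-2.14), Dusp1 (-2.33), Nr4a3 (-1.74), Klf4 (-1.76).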

How the results depend on the processing

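In microglia, the count of genes called (4616) stayed within 1.5 times under another scaling (4631), DESeq2 (5225), no filter (3837), no sex covariate (4914), no APOE33 libraries (5053) and 3 libraries left out together (4158), and ran from 3337 to 4396 with each knock-out or APOE44 library left out. It was 1854 in males only and 790 when a log2 difference of at least 1 was also required. In astrocytes (4653) the latter gave 1006 and the fits that left out a library 3323 to 4450. For the difference between cell types (3822), males only gave 2003, the fold requirement 1251 and the fits that left out a library 2925 to 3762. With the replicate number as a block the counts were 3526, 3146 and 2742. Numbers did not pair the samples: the deviations of same-numbered knock-out and APOE44 libraries correlated at -0.14, 0.044, -0.043 and 0.0041, and 0 of 4 knock-out libraries were closest to their own number. The block ended the call of 17 of the 184 calls checked, among them P2ry12, Axl, Egr1, Btg2 and Il1b. Males only ended 33 of the 184, among them Apoe (adjusted p = 0.0673). None of the 4616 genes changed direction in any of these microglia fits. Depth limits genes at 0 in a group, such as Mog, Ermn and Ugt8a, for which only a bound can be given.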
